A study of Homo sapiens with 18 samples.

Results

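PGD, TKT, TALDO1, ME1 and IDH1 encode 5 enzymes of the pentose phosphate pathway and of NADPH supply, and they were followed here across young, senescent and inhibitor-treated human fibroblasts. They were taken by name, as 5 of the 38716 gene symbols in the deposited tables, by a rule that uses no measured value. In cells treated with ICM all 5 transcripts were higher than in young cells, from 1.37-fold for TKT to 3.97-fold for PGD. In old cells PGD and TKT transcripts were lower than in young cells, IDH1 and ME1 were slightly lower, and TALDO1 was not called. Ribosome footprints of all 5 genes were also higher in ICM cells, and no change in translational efficiency was called for any of them.

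Ribosome profiling (Ribo-seq, the sequencing of mRNA fragments that ribosomes shield from nuclease) and poly(A)-selected mRNA-seq were carried out on IMR90 fibroblasts, a line derived from human fetal lung, in 18 libraries that formed 6 groups of 3 replicates. Young cells were proliferating wild type IMR90 at low passage. Old cells were wild type IMR90 at high passage, in replicative senescence. ICM cells were low-passage IMR90 treated with inflachromene, a compound known to bind HMGB1 and HMGB2, a pair of abundant chromatin proteins. All groups came from the same cell line, no allele was altered in any of them, and the study's methods describe 3 independent cultures for each condition, each lysate serving both assays. The design text of the series gives other numbers of samples per condition for these assays than the 3 of the sample titles, which were followed here, so every n = 3 rests on the titles. The labels of these samples give no dose and no duration for the inhibitor.

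The pentose phosphate pathway branches from early glycolysis. Its oxidative branch, of which PGD is a part, yields NADPH, the reducing power for lipid synthesis and for the glutathione and thioredoxin systems, while its non-oxidative steps, run by TKT and TALDO1, exchange carbon between sugar phosphates and yield no NADPH. ME1 (cytosolic malic enzyme) and IDH1 (cytosolic isocitrate dehydrogenase) make NADPH outside the pathway. Of the members, therefore, PGD is the only NADPH-producing enzyme of the pathway itself. Genes of these enzymes are known targets of NRF2, a transcription factor activated by oxidative and electrophilic stress, and ME1 and IDH1 are also linked to lipid synthesis.

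In the GRCh37 build, PGD lies at chr1:10458649-10480568 on the plus strand with 13 exons, TKT at chr3:53258728-53290068 on the minus strand with 14, TALDO1 at chr11:747415-765012 on the plus strand with 8, ME1 at chr6:83920121-84140770 on the minus strand with 14, and IDH1 at chr2:209100953-209130798 on the minus strand with 10. The exons are those of the transcript marked as representative in the annotation. Promoter windows of 300 bases (250 before and 50 after the gene start, from RefSeq) were searched on both strands for TGACNNNGC, the core of the element bound by NRF2, because the 5 transcripts rose together in ICM cells. PGD, ME1 and IDH1 held a match, and 13.3% of all 35116 promoter windows did. The windows of TKT and TALDO1 did not hold these letters. The RefSeq gene start is not always the outermost start of the spans above: it is the same for ME1, but lies inside the span by 472 bases for PGD, at position 10459121, and by 11003 bases for IDH1, at position 209119795. Of 2 IDH1 windows in the table, the one at the end of the RefSeq gene was used. Distances below are from the RefSeq start. The matches are shown with 8 bases on either side, the core in capitals, as placed by exact match in GRCh37. A match describes the sequence and was not tested for binding.

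PGD promoter, chr1:10458912-10458936, minus strand, 192 bases upstream of the RefSeq start: cacctagaTGACATTGCcccggcga

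ME1 promoter, chr6:84140891-84140915, minus strand, 128 bases upstream of the RefSeq start: tcctgccaTGACTCAGCgcttctcg

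ME1 5′ end, chr6:84140743-84140767, plus strand, 11 bases downstream of the RefSeq start: tgctggggTGACGGTGCtgactgca

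IDH1 promoter, chr2:209119922-209119946, minus strand, 134 bases upstream of the RefSeq start: cctctcgcTGACTCCGCccatccca

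The mRNA-seq libraries held between 7902427 and 14144455 reads in coding genes, whereas the Ribo-seq libraries ranged from 46239 to 1718521 CDS reads, a 37.2-fold span. The share of Ribo-seq reads in the CDS was 15.0% in old replicate 2 and 34.4% in young replicate 1, and at least 54.7% in the others. All 8 fibroblast markers exceeded 1 CPM (counts per 1000000, scaled between libraries) in every condition, with a summed level of 28712 to 32517 in young, 27034 to 30391 in old and 12152 to 12632 in ICM libraries. Of the markers of other cell types, CD3E and CDH5 were at 0 in all 9 mRNA-seq libraries and PTPRC averaged under 1 CPM in each condition. The 4 leukocyte markers, nearly all of whose level was CD68, summed to 19.5 to 21.6 CPM in young, 32.4 to 35.6 in old and 53.9 to 66.1 in ICM libraries. The 4 epithelial markers, mostly KRT19, summed to 15.1 to 18.9, 2.59 to 3.34 and 1.13 to 2.03 CPM, and the 4 endothelial markers to 0.620 to 0.698, 0.834 to 1.04 and 3.61 to 4.49 CPM in the same order. The part of these shifts in the results below was not tested. In such bulk libraries, a smaller number of expressing cells and less RNA per cell cannot be told apart.

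Each of the 5 genes passed the filter on low counts in both assays. In the comparison of ICM with young cells, which asks what the inhibitor does to proliferating fibroblasts, all 5 transcripts rose at an adjusted p under 0.05 (edgeR, Benjamini-Hochberg), where 34.9% of the 13173 genes tested rose, 36.1% fell and 71% were called in either direction. Their median log2 change was 1.28, beside -0.01 over all genes tested.

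PGD, the phosphogluconate dehydrogenase of the oxidative branch, showed the largest change among the members. Its mRNA-seq level was 311.8, 319.1 and 303.4 CPM in the young libraries, 144.3, 147.4 and 145.2 CPM in the old and 1233.5, 1281.5 and 1199.4 CPM in the ICM libraries. The 3 conditions did not overlap, with old lowest and ICM highest. The log2 change was 1.99 (SE 0.06, edgeR adjusted p = 5.65e-18) in ICM against young cells, rank 364 from the top of the 13173 genes tested. In old against young cells it was -1.10 (SE 0.06, edgeR adjusted p = 6.18e-13), a 2.14-fold lower level.

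TKT, the transketolase of the non-oxidative branch, changed in the same directions but with other sizes. The young libraries stood at 439.0, 447.5 and 456.4 CPM, the old at 235.8, 222.8 and 240.2 CPM, and the ICM libraries at 601.0, 611.0 and 631.7 CPM in mRNA-seq. Again no replicate of one condition reached another condition's range. The rise in ICM over young cells was the smallest of the members, at 0.46 on the log2 scale (SE 0.06, edgeR adjusted p = 3.59e-07), while in old cells the transcript was 1.92-fold lower (log2 -0.94, SE 0.06, edgeR adjusted p = 5.66e-12).

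TALDO1, the transaldolase of the same branch, had nearly the same level in young and old cells. The young libraries held 265.6, 257.7 and 235.3 CPM, the old ones 260.9, 254.3 and 257.0 CPM, and those of ICM cells 553.0, 535.9 and 529.7 CPM. The young and old ranges overlapped, and their log2 difference was 0.03 with a 95% interval from -0.09 to 0.15 (edgeR adjusted p = 0.726). In ICM cells the transcript was 2.13-fold higher than in young cells (log2 1.09, SE 0.06, edgeR adjusted p = 3.44e-13).

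ME1, which decarboxylates malate in the cytosol, was measured at 114.2, 108.1 and 107.6 CPM in young, 87.8, 97.2 and 101.8 CPM in old and 262.2, 272.9 and 265.1 CPM in ICM libraries. The old values lay just under the young ones and the ICM values far above both. The change was 1.28 (SE 0.06, edgeR adjusted p = 4.46e-14) in ICM and -0.20 (SE 0.07, edgeR adjusted p = 0.0113) in old against young cells. The call in old cells was lost without young replicate 1 (edgeR adjusted p = 0.0565) and without old replicate 1 (edgeR adjusted p = 0.0873).

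IDH1, which oxidises isocitrate in the cytosol and in peroxisomes, followed ME1. Its mRNA-seq level was 91.3, 87.8 and 88.0 CPM in young, 67.2, 81.8 and 74.5 CPM in old and 284.4, 278.4 and 268.1 CPM in ICM libraries. The ranges of the 3 conditions did not overlap. The rise in ICM cells was 3.11-fold (log2 1.64, SE 0.07, edgeR adjusted p = 1.62e-15), and in old cells the change was -0.25 (SE 0.07, edgeR adjusted p = 0.00369).

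**Figure D1:**
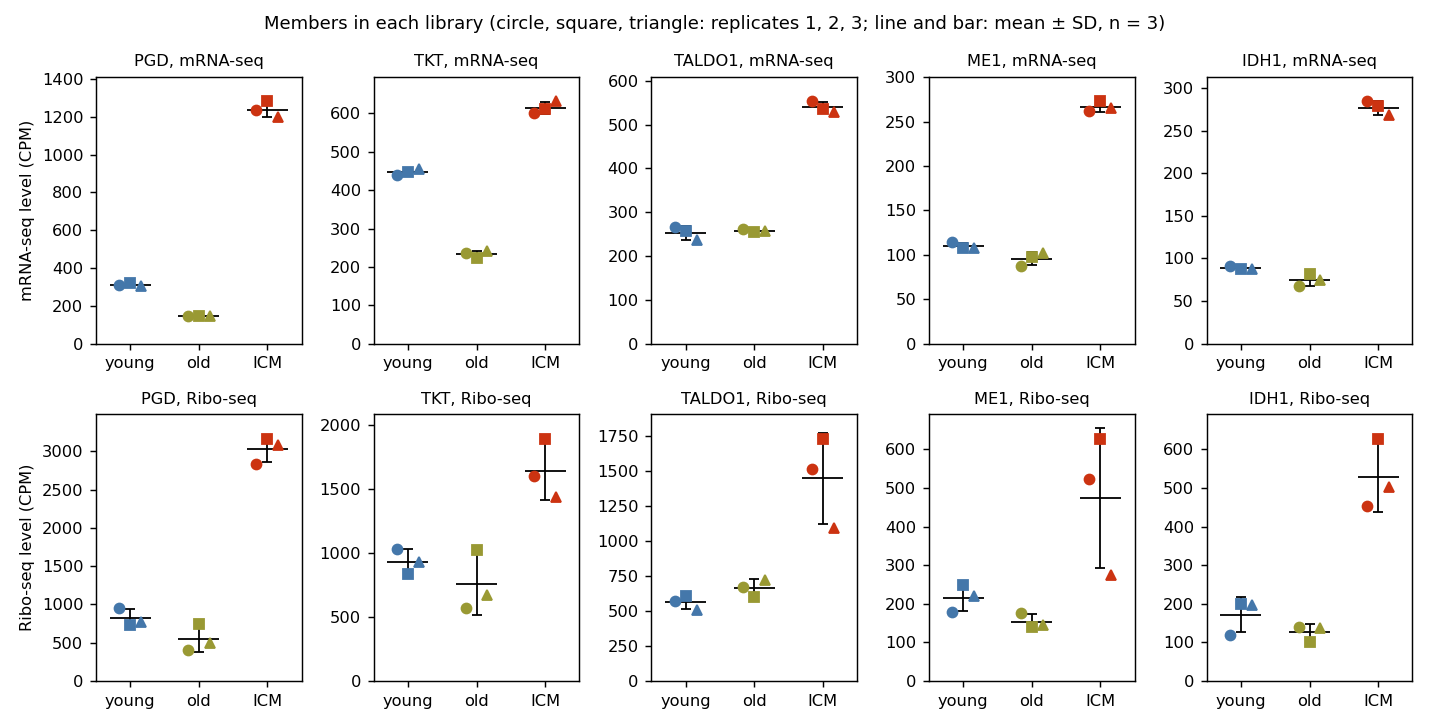
Level of each member in each library, as scaled counts per 1000000 (CPM) on a linear axis from 0, for mRNA-seq (top row) and Ribo-seq (bottom row) in young, old and ICM cells. Symbols are replicates 1, 2 and 3, with the mean and SD of 3 as line and bar; in every panel the 3 ICM libraries sit above all young and old libraries, and the spread is wider in Ribo-seq.

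Comparing old with young cells asks what replicative senescence does. In it, 4 of the 5 transcripts fell, where 33.7% of genes fell, 32.4% rose and 66.1% were called in either direction. The median change of the members was -0.25, beside -0.01 over all genes. Both comparisons used the same young libraries, so they are not independent of each other. PGD and TKT fell by similar amounts: the difference between their log2 changes was -0.15, with a 95% interval from -0.32 to 0.01. PGD fell further than IDH1 by 0.85 on the log2 scale (95% interval of the difference -1.03 to -0.66) and further than ME1 (difference -0.90, interval -1.07 to -0.72). In ICM against young cells the order differed: the change of PGD exceeded that of TKT by 1.53 (interval 1.37 to 1.70) and that of IDH1 by 0.35 (interval 0.17 to 0.53). These intervals treat the genes' errors as independent.

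Set directly against old cells, ICM cells had higher scaled levels of all 5 transcripts. Of all genes tested, 30.7% were higher and 63.3% were called in either direction. Scaled levels are relative to the other reads of a library and give no amount per cell. The median log2 difference of the members was 1.48, beside -0.01 over all genes tested. PGD was 8.50-fold higher (log2 3.09, SE 0.06, edgeR adjusted p = 4.95e-21) and ranked 119 from the top of the genes tested. IDH1 was 3.71-fold, ME1 2.79-fold, TKT 2.64-fold and TALDO1 2.10-fold higher. Summed over the members, the mRNA-seq level was 1211 ± 17.5 CPM in young, 806 ± 11.5 CPM in old and 2936 ± 42.8 CPM in ICM cells (mean ± SD, n = 3), so that ICM and old cells lay on opposite sides of young cells.

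Footprints within the CDS counted the ribosomes on these mRNAs. In Ribo-seq all 5 genes rose in ICM over young cells, where 13.7% of the 4643 genes tested rose, 12.9% fell and 26.6% were called in either direction. The median log2 change of the members was 1.40, beside -0.00045 over all genes tested.

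PGD footprints stood at 950.8, 735.2 and 764.2 CPM in young, 402.5, 744.4 and 496.7 CPM in old and 2833.1, 3164.7 and 3082.5 CPM in ICM libraries. All ICM libraries were far above the rest, and old replicate 2 alone of the old libraries reached the young range. The change was 1.94 (SE 0.19, edgeR adjusted p = 4.00e-10) in ICM and -0.68 (SE 0.19, edgeR adjusted p = 0.00525) in old against young cells. In old cells it was no longer called without old replicate 1 (edgeR adjusted p = 0.133).

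TKT footprints were at 1030.0, 837.5 and 933.4 CPM in young, 571.7, 1026.1 and 669.1 CPM in old and 1601.3, 1896.1 and 1438.5 CPM in ICM libraries, with old replicate 2 within the young range. TALDO1 footprints were at 574.4, 610.5 and 510.3 CPM in young, 672.0, 603.6 and 724.5 CPM in old and 1517.6, 1732.4 and 1096.0 CPM in ICM libraries. Both genes were separated from young and old cells in all ICM libraries. TKT rose by 0.86 (SE 0.19, edgeR adjusted p = 0.000812) and TALDO1 by 1.40 (SE 0.19, edgeR adjusted p = 5.48e-07) on the log2 scale.

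The footprints of ME1 and IDH1 rested on few reads in the shallow libraries. ME1 stood at 178.3, 247.7 and 218.9 CPM in young, 174.9, 140.8 and 143.7 CPM in old and 522.3, 627.5 and 274.0 CPM in ICM libraries, the last of these from 12 reads. IDH1 stood at 118.8, 199.8 and 197.2 CPM in young, 140.1, 100.6 and 137.5 CPM in old and 453.3, 627.5 and 502.3 CPM in ICM libraries. Young replicate 1 held 9 ME1 and 6 IDH1 reads, and old replicate 2 held 7 and 5. The rise in ICM over young cells was 1.15 (SE 0.23, edgeR adjusted p = 0.000228) for ME1 and 1.41 (SE 0.22, edgeR adjusted p = 6.84e-06) for IDH1.

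Of the 5 genes, PGD was the one called lower in Ribo-seq of old against young cells, where 17% of genes fell, 19.3% rose and 36.3% were called in either direction, and the median log2 change of the members was -0.49, beside 0.02 over all genes. IDH1 (-0.49, edgeR adjusted p = 0.0586), ME1 (-0.50, edgeR adjusted p = 0.0648) and TKT (-0.41, edgeR adjusted p = 0.0834) stayed above the threshold, and TALDO1 had a value of 0.28 (edgeR adjusted p = 0.227). The count of 1 rested on single libraries: it was 0 without old replicate 1 and 3 without young replicate 1, with ME1 and IDH1 added, and 2 without both young replicate 1 and old replicate 2, the libraries with the lowest CDS share.

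Between ICM and old cells all 5 genes had higher scaled footprint levels in ICM. Of all genes tested, 5.79% did and 13.4% were called in either direction. The median log2 difference of the members was 1.64, beside -0.02 over all genes tested. PGD was 6.17-fold (log2 2.62, SE 0.19, edgeR adjusted p = 5.37e-13), IDH1 3.75-fold, ME1 3.13-fold, TKT 2.41-fold and TALDO1 2.17-fold higher. The summed footprint level of the members was 2702 ± 130 CPM in young, 2249 ± 334 CPM in old and 7123 ± 844 CPM in ICM cells (mean ± SD, n = 3). Every old library lay below every young one, but the ranges nearly touched, the highest old at 2616 CPM and the lowest young at 2624 CPM. That old library, replicate 2, rested on 130 member reads, and the difference between the sums was not tested.

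Translational efficiency, the footprint level relative to the mRNA level of the same lysate, separates a change in ribosome load from one in mRNA. It was called for 0 of the 5 genes in each comparison by edgeR, and likewise by DESeq2, where edgeR called 2.45% of 4618 genes in ICM against young, 1.45% in old against young and 0.26% in ICM against old cells. At an unadjusted edgeR p under 0.05 the counts were 1, 2 and 1. The share of all genes at that level was not computed, so nothing is concluded from these counts. In ICM against young cells PGD had a log2 difference of -0.05 (95% interval -0.41 to 0.31), IDH1 of -0.24 (interval -0.70 to 0.22), ME1 of -0.15 (interval -0.63 to 0.33), TALDO1 of 0.28 (interval -0.09 to 0.64) and TKT of 0.41 (interval 0.03 to 0.80, edgeR adjusted p = 0.296). The interval of TKT lay above 0 before adjustment, and the others included 0.

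In old against young cells, efficiency was 0.57 higher for TKT (interval 0.19 to 0.95, edgeR adjusted p = 0.158) and 0.47 higher for PGD (interval 0.09 to 0.85, edgeR adjusted p = 0.280), neither past the threshold. For TKT the difference was called once the lysate block was left out (0.52, edgeR adjusted p = 0.0291). The ratio of TKT footprints to mRNA reads, both counted in the CDS and scaled to library size, averaged 1.33 ± 0.14 in young, 2.02 ± 0.78 in old and 1.69 ± 0.30 in ICM cells (mean ± SD, n = 3). For PGD it averaged 1.98 ± 0.28, 2.75 ± 0.94 and 1.74 ± 0.12 in the same order. The median over genes with at least 10 CDS reads in both libraries averaged 1.12 ± 0.18, 1.07 ± 0.16 and 1.40 ± 0.14. Old replicate 2, the library with the lowest CDS share, gave the highest ratios, 3.82 for PGD and 2.92 for TKT, from 37 and 51 footprints. In old replicates 1 and 3 the ratio was 2.04 and 2.39 for PGD, and 1.49 and 1.66 for TKT. In ICM against old cells PGD had the lowest efficiency difference of the members, -0.52 (interval -0.89 to -0.15, edgeR adjusted p = 0.270).

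**Figure D2:**
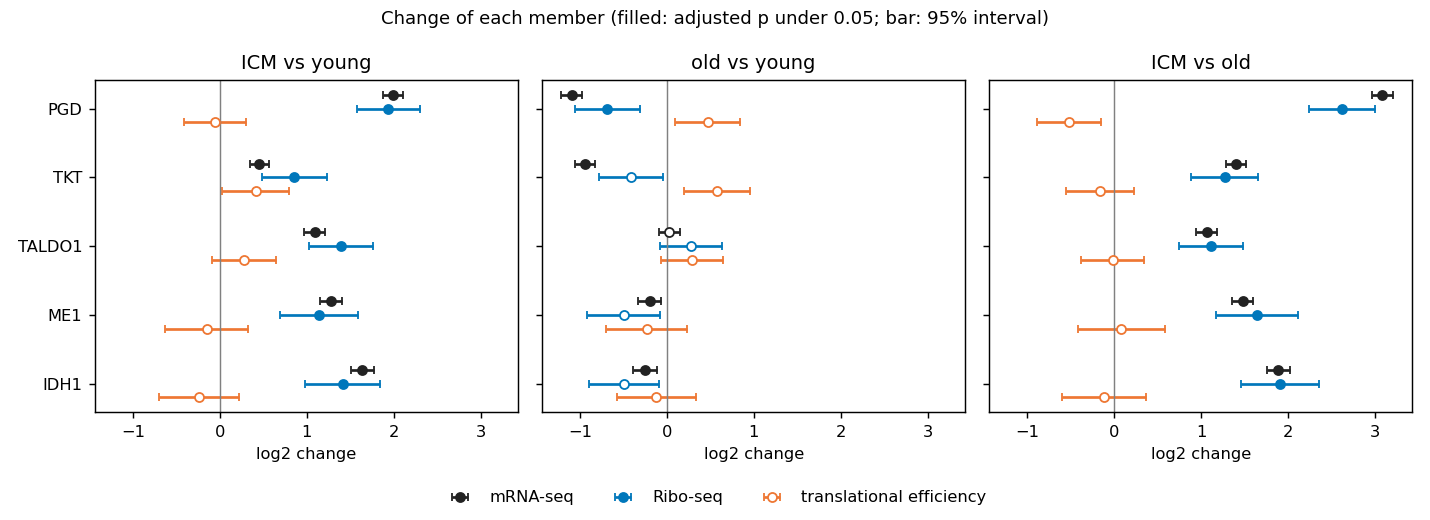
Log2 change of each member (rows) in mRNA-seq, Ribo-seq and translational efficiency, in 3 panels for the comparisons of ICM with young, old with young and ICM with old cells; points are edgeR estimates, bars 95% intervals, and filled points passed an adjusted p under 0.05. In mRNA-seq and Ribo-seq all 5 genes are filled and right of 0 in both panels with ICM, and no efficiency point is filled.

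Levels can be compared between genes only per length, here as CDS reads per kilobase of coding length and per 1000000 CDS reads of the library. In mRNA-seq of young cells TALDO1 (375 ± 18.4) and TKT (346 ± 7.97) overlapped at the top, above PGD (261 ± 3.57), ME1 (78.2 ± 4.64) and IDH1 (70.3 ± 1.17; mean ± SD, n = 3). In old cells TALDO1 (370 ± 3.10) kept its level and stood apart from TKT (174 ± 4.73) and PGD (119 ± 4.11), and ME1 overlapped IDH1. In ICM cells PGD came first, at 1109 ± 23.5, ahead of TALDO1 (828 ± 21.6), TKT (483 ± 19.4), IDH1 (231 ± 10.5) and ME1 (189 ± 3.95), with no overlap between neighbours.

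In Ribo-seq the same measure put PGD (518 ± 79.0), TALDO1 (513 ± 46.5) and TKT (459 ± 50.8) level in young cells, each overlapping the next. In ICM cells PGD reached 1935 ± 149, TALDO1 1324 ± 283 and TKT 814 ± 112, in that order without overlap. IDH1 (394 ± 70.5) and ME1 (255 ± 95.6) overlapped each other there. The member with the most reads per coding length in ICM cells was thus PGD in both assays. In old cells it was TALDO1 in both (566 ± 28.6 in Ribo-seq). Protein levels were not examined here.

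**Figure D3:**
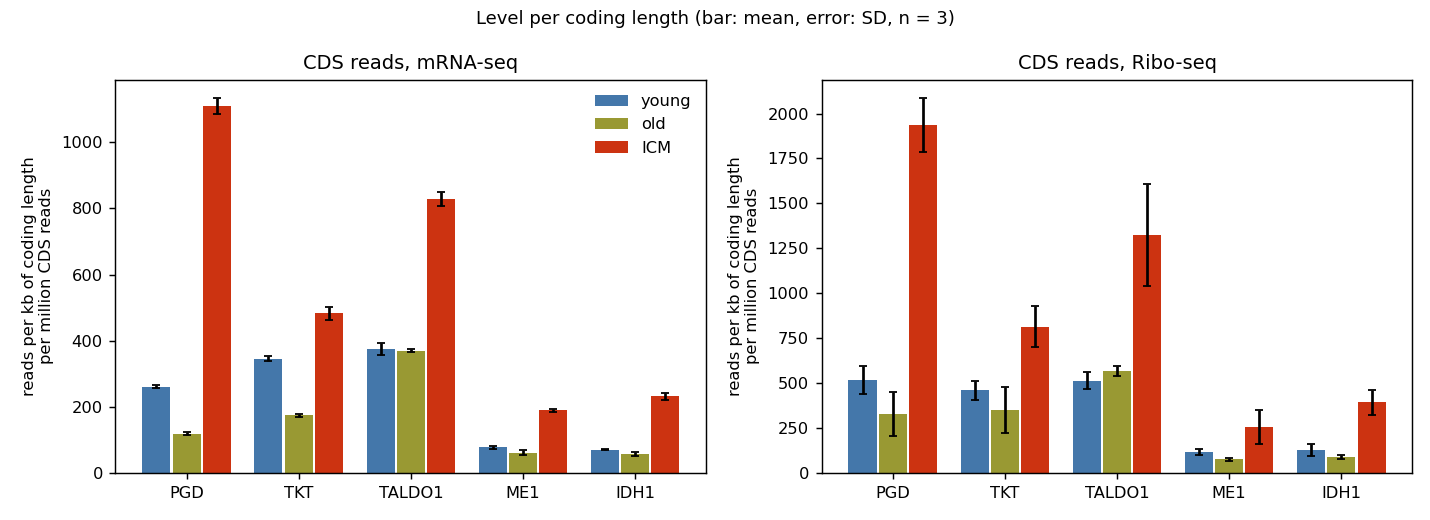
CDS reads per kilobase of coding length and per 1000000 CDS reads of the library for each member in young, old and ICM cells, in mRNA-seq (left) and Ribo-seq (right); bars are means of 3 libraries from 0 and error bars the SD. In mRNA-seq PGD stands at 261 in young cells, under TALDO1 and TKT, and at 1109 in ICM cells, above all other members.

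The reads of each gene were also divided by position. Between 98.0% and 100% of the footprints of a member in a condition fell in the CDS. In mRNA-seq the 3′ UTR held 13.3% to 15.9% of PGD reads, 14.6% to 18.3% of ME1 reads and 20.1% to 22.0% of IDH1 reads (means of 3 libraries in each condition), but under 1% of TKT and TALDO1 reads. The TKT share averaged 0.63% ± 0.17 in young, 0.36% ± 0.01 in old and 0.95% ± 0.15 in ICM cells (SD, n = 3), and the 3 ranges did not overlap (exact permutation test, two-sided p = 0.1 in each comparison, the smallest that 3 against 3 allows). The 3′ UTR shares of PGD, ME1 and IDH1 were lower in ICM than in old cells by 2.59, 3.31 and 1.85 percentage points, also without overlap, as was that of IDH1 in ICM against young cells (20.1% ± 0.31 against 22.0% ± 0.80, SD, n = 3). Among genes with a mean of at least 500 reads per library, the 3′ UTR shares of the groups did not overlap in 20.7% for ICM against young, 12.6% for old against young and 17.2% for ICM against old cells.

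Of the 5′ UTR shares, that of ME1 was 3.10 points higher in ICM than in young cells without overlap, beside 13.5% of genes that did not overlap. Those of TKT and TALDO1 were 1.98 and 1.20 points higher in ICM than in old cells, beside 22.9% of genes. The CDS share of TKT was 2.56 points lower in ICM than in old cells, beside 19.3% of genes. In all, 11 of 45 comparisons of a region's share did not overlap, each at an exact permutation p of 0.1 (Benjamini-Hochberg adjusted p = 0.409), and none passed the threshold.

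The wider pathway list, which like the others was drawn up with earlier results of these data known, gave 11 genes beside the members, of which 9 could be tested in mRNA-seq. In ICM against young cells 1 of these rose and 5 fell, where 34.9% and 36.1% of all genes tested did. The median change of the 9 was -0.23, beside -0.01 over all genes. The gene that rose was RBKS (ribokinase), by 1.97 (SE 0.32, edgeR adjusted p = 1.16e-05), from 4 to 6 reads per young library. The lactonase PGLS (-0.23), the isomerase RPIA (-0.51), the aldolase DERA (-0.28), the kinase SHPK (-0.67) and PRPS2, which makes phosphoribosyl pyrophosphate (-0.50), fell. The epimerase RPE (0.03), H6PD of the endoplasmic reticulum (-0.13) and PRPS1 (0.12) were not called. In old against young cells 2 genes rose, RBKS and PRPS1 (0.65), and 5 fell, where 32.4% and 33.7% of all genes tested did. The median of the 9 was -0.21, beside -0.01 over all genes. TKTL1 and TKTL2, the transketolase-like genes, had 0 and 1 reads in all 9 mRNA-seq libraries.

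The list of other NADPH sources also holds genes whose enzymes do not make NADPH themselves. Of this list, 12 genes beside ME1 and IDH1 could be tested in mRNA-seq. In ICM against young cells 1 of them rose and 8 fell, where 34.9% and 36.1% of all genes tested did. The median of the 12 was -0.30, beside -0.01 over all genes. IDH2, the mitochondrial counterpart of IDH1, rose by 0.55 (SE 0.06, edgeR adjusted p = 1.04e-07). The mitochondrial malic enzymes ME2 (-0.91) and ME3 (-0.81) fell, opposite to ME1. Of the folate pathway, MTHFD2, its mitochondrial dehydrogenase, was at 293.2, 274.7 and 273.2 CPM in young, 127.2, 133.2 and 121.7 CPM in old and 71.7, 70.2 and 62.9 CPM in ICM libraries. It fell in all comparisons without overlap, by 2.04 on the log2 scale in ICM (SE 0.07, edgeR adjusted p = 2.71e-17) and by 1.14 in old against young cells (SE 0.06, edgeR adjusted p = 8.98e-13).

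MTHFD1 (-1.05), MTHFD1L (-0.90), ALDH1L2 (-0.33), all of folate metabolism, NNT, the mitochondrial transhydrogenase (-0.26), and GLUD1, glutamate dehydrogenase (-0.20), also fell in ICM cells. The NAD kinases NADK (-0.11) and NADK2 (-0.05), which supply the NADP pool, and MTHFD2L (0.10) were not called there. In old against young cells 10 of the 12 fell and 2 rose, NADK by 0.51 and GLUD1 by 0.15. Of all genes tested there, 33.7% fell and 32.4% rose. The median of the 12 was -0.57, beside -0.01 over all genes. In Ribo-seq of ICM against young cells 13.7% of all genes tested rose and 12.9% fell. The 8 genes of the list tested there had a median of -1.09, beside -0.00045 over all genes. IDH2 (0.92) rose and MTHFD2 (-2.11), MTHFD1 (-1.62), ME2 (-1.61) and MTHFD1L (-2.53) fell. These falls rested on few footprints in the ICM libraries: 10, 7 and 5 reads for MTHFD2, 11, 7 and 1 for MTHFD1, 4, 0 and 6 for ME2 and 6, 1 and 1 for MTHFD1L. ME2 in ICM replicate 3, at 137.0 CPM, was above all 3 young libraries (79.2 to 103.1 CPM).

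**Figure D4:**
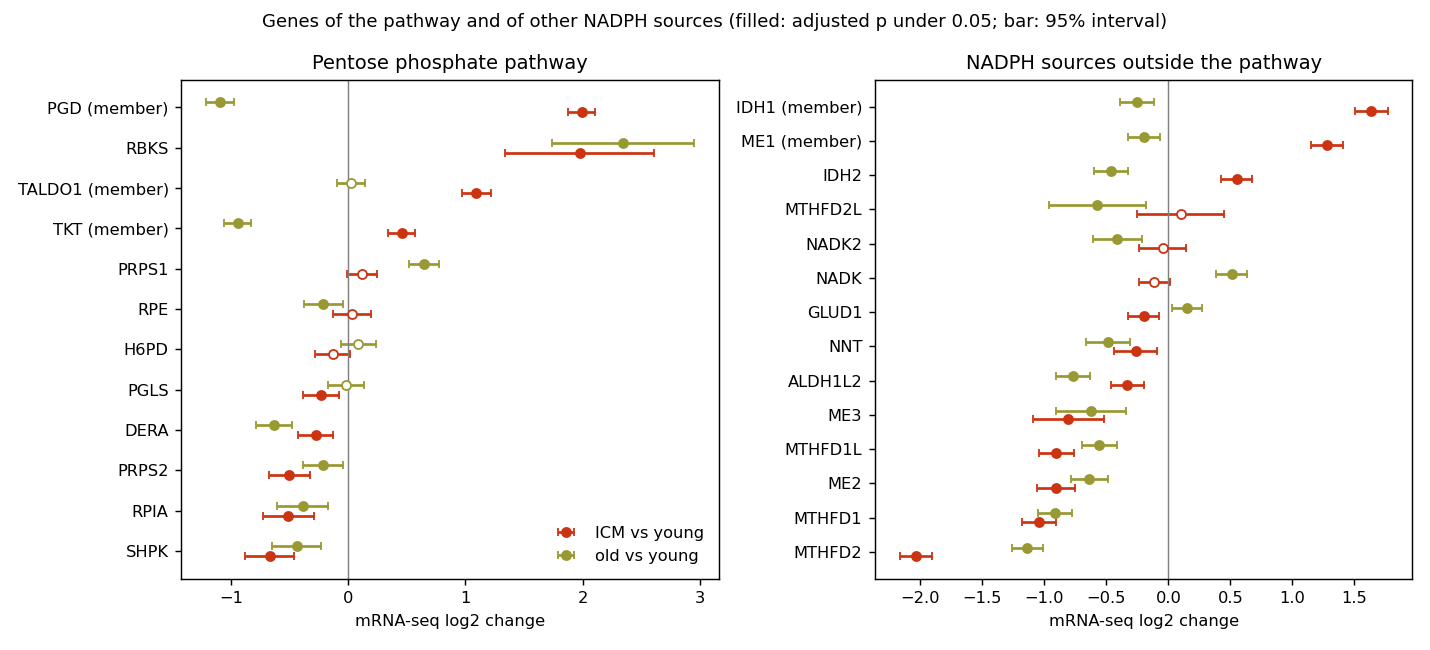
mRNA-seq log2 change in ICM against young (red) and old against young cells (olive) for 12 tested genes of the pentose phosphate pathway (left) and 14 of the list of other NADPH sources (right), members marked. Points are edgeR estimates, bars 95% intervals, and filled points passed an adjusted p under 0.05. PGD, IDH1 and ME1 lie right of 0 in ICM cells, whereas MTHFD2 is at -2.04.

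Enzymes that spend NADPH were counted as a group. Of 18 such genes tested in mRNA-seq, 14 rose and 3 fell in ICM against young cells, where 34.9% and 36.1% of all genes did. The median of the 18 was 0.89, beside -0.01 over all genes. In old against young cells 7 rose and 7 fell, where 32.4% and 33.7% of all genes did, with a median of 0.05. The largest rises in ICM cells were PTGR1, a prostaglandin and alkenal reductase (3.90, SE 0.07, edgeR adjusted p = 1.18e-21), and AKR1B1, aldose reductase (2.78, SE 0.07, edgeR adjusted p = 4.05e-19), a family with near-identical copies, so that its reads may be shared. NOX4, an oxidase that turns NADPH into hydrogen peroxide, fell most (-2.30), from 3.70 ± 0.55 to 0.75 ± 0.15 CPM (mean ± SD, n = 3), a level under that set for naming, and ALDH18A1 (-0.41) and PYCR1 (-0.22), both of proline synthesis, fell less. In old cells NOX4 (1.34) and DHCR7 of cholesterol synthesis (0.87) rose, and NQO1, a quinone reductase (-1.83), and CBR1, a carbonyl reductase (-0.88), fell.

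Of 15 other targets of NRF2, 15 rose in ICM against young cells in mRNA-seq and 15 in Ribo-seq. Of all genes tested, 34.9% and 13.7% rose there. The medians of the targets were 1.98 and 1.85, beside -0.01 and -0.00045 over all genes. HMOX1, heme oxygenase, rose by 4.80 (SE 0.08, edgeR adjusted p = 6.04e-22) and OSGIN1 by 3.60 (SE 0.08, edgeR adjusted p = 1.45e-20). In old cells 2 rose, GCLC of glutathione synthesis (0.43) and the peroxiredoxin PRDX1 (0.29), and 11 fell in mRNA-seq. Of all genes tested there, 32.4% rose and 33.7% fell. The median of the targets was -0.41, beside -0.01. In Ribo-seq of old cells 4 of the 15 rose and 4 fell, where 19.3% and 17% of all genes did. Their median was -0.01, beside 0.02 over all genes. The ferritin chains FTH1 (0.63) and FTL (1.65), OSGIN1 (1.41) and the sulfiredoxin SRXN1 (0.90) rose, of which FTH1 (-0.41), FTL (-0.30) and OSGIN1 (-0.66) had fallen in mRNA-seq. The efficiency of these 3 was called higher in old than in young cells, by 1.07, 1.99 and 2.13 on the log2 scale (edgeR adjusted p = 0.00354, 4.25e-06 and 0.00345). The ferritin genes have near-identical copies, so that their reads may be shared, and OSGIN1 rested on 1 to 36 footprints per library. Young replicate 1 lay within the old range for FTL and above it for FTH1. The SRXN1 ranges overlapped, at 20.8 to 39.6 CPM in young and 20.1 to 48.4 CPM in old libraries. NQO1, TXNRD1 and GSR are on both this list and that of NADPH users.

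Of 13 targets of SREBP, the factor that drives sterol and fatty acid synthesis, 12 rose in ICM against young cells, with a median of 0.63, beside -0.01, among them IDI1 of sterol synthesis (1.63) and FADS1, a fatty acid desaturase that was 2.72 higher in ICM than in old cells on the log2 scale. Of all genes tested, 34.9% rose in ICM against young cells. In old cells 7 of the 13 rose and 5 fell, where 32.4% and 33.7% of all genes did, with a median of 0.31. Of 8 genes of the cell state, CDKN1A, a cell cycle inhibitor, rose in ICM cells by 2.69 and 7 fell, with a median of -3.96, among them the proliferation marker MKI67 (-7.54) and the nuclear lamina gene LMNB1 (-6.99). In old cells CDKN1A (1.59) and CDKN2A (0.60) rose and 6 fell, with a median of -1.97. Beside these 8 genes, 36.1% of all genes tested fell in ICM and 33.7% in old against young cells.

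Finally, the genes whose mRNA-seq pattern lay nearest to each member were listed by Pearson's r of log2 CPM over the 9 libraries, among 10808 genes whose mean reached 5 CPM. The libraries fall into 3 conditions, so r mainly compares condition means, and it is given as a description. Nearest to PGD were S1PR3 (r = 0.999), MFF (0.999) and TXNRD1 (0.999), and among the nearest to TKT were CYP1B1 (0.999) and SIPA1L2 (0.999). TALDO1 was nearest to SRXN1 (0.998), CLU (0.996) and HSD17B7 (0.996). ME1 and IDH1 were each other's nearest gene (0.997), followed by SLC40A1 for both (0.997), AKR1C1 for ME1 (0.997), itself uncertain through near-identical copies, and MGST1 for IDH1 (0.997). Among the members, TKT and TALDO1 were the least alike (0.730).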

How the data were processed

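The authors deposited 18 tables of estimated counts, unscaled for depth, with a row for each gene symbol and a column for each of the 5′ UTR, CDS, 3′ UTR and non-coding classes. The submitters' processing notes name STAR 2.6.0c, featureCounts, DESeq2, deepTools and GRCh37, without saying which served these tables. How reads with several matches were placed is not given in the sources used here, but 14.1% to 23.2% of values above 0 were not whole in a library. Some reads were therefore divided between features, and genes with near-identical copies are uncertain.

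Counts were rounded to whole numbers. CDS reads were used for Ribo-seq, and the 5′ UTR, CDS and 3′ UTR were summed for mRNA-seq. The 9 libraries of an assay were fitted together in edgeR 4.0.16 (R 4.3.3: TMM scaling, filterByExpr, glmQLFit, glmQLFTest), with two-sided p adjusted by Benjamini-Hochberg over all genes tested and called under 0.05. Translational efficiency was the interaction of assay and condition in 1 fit of 18 libraries, blocked by lysate, of the 4618 genes that passed both assays' filters. The study used anota2seq, which was not run. SEs were derived from each estimate and its F value, and 95% intervals from the SE. Coding lengths come from GENCODE v44 lifted to GRCh37. Promoter sequences come from RefSeq (GRCh38.p14) and matched all 5 genes.

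The members and lists were chosen with earlier results of these data known. Every member was described. A few genes of the lists are not reported here and were left out of the lists' counts. Of the pathway and NADPH source lists any measured gene could be named, and of the other lists the 2 called genes that rose most and the 2 that fell most in mRNA-seq, at a mean of at least 5 CPM. FTH1, FTL and SRXN1 lay outside this rule and were named after they were seen to rise in Ribo-seq of old cells. Alternatives were DESeq2 1.42.0, RLE scaling, other filters and thresholds, fits of only the compared groups, a replicate block or none, mRNA-seq CDS reads only, thinned Ribo-seq counts and leaving out each replicate. The pipeline was tested on simulated data with 200 genes changed 2-fold in ICM against young cells. It recovered 96.0% of them in mRNA-seq, 49.5% in Ribo-seq and 56.5% in translational efficiency. Absence of a call in Ribo-seq or efficiency therefore does not by itself show that a gene was unchanged. Total depth is given in the text as the range of each assay. In replicate order, the Ribo-seq libraries held 54421, 685061 and 1718521 CDS reads in young cells. They held 1672807, 54708 and 583798 in old cells and 225041, 78980 and 46239 in ICM cells. Exact binomial intervals cover counting error only, and 0 counts are compatible with up to 3.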

Additional observations from a re-analysis of the deposited data

Results flagged for a closer look

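Footprints outside the CDS did not enter the comparisons. In old cells PGD had 4 of 850 footprints in the 3′ UTR, 0.471% (exact binomial 95% interval 0.128% to 1.20%), against 2 of 1712 in young cells (0.117%, interval 0.0142% to 0.421%). ME1 had 5 of 328 in old cells, 1.52% (interval 0.497% to 3.52%), against 1 of 509.5 in young cells (0.196%, interval 0.00496% to 1.09%). Both were noted because the share lay above that in young cells. The intervals of old and young overlap for each gene, the counts are pooled over 3 libraries, and the difference was not tested.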

How the results depend on the processing

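The 5 calls in ICM against young and in ICM against old cells, in mRNA-seq and in Ribo-seq, kept their direction and threshold under every alternative run except TKT mRNA in ICM against young cells, whose change of 0.46 lies under a log2 threshold of 0.6. Of 138 recomputed counts of called members, 128 stayed within 1.5 times the count reported and 10 did not. In mRNA-seq of old against young cells 2 genes remained with an absolute log2 change over 0.6. In Ribo-seq of old against young cells, 1 gene was called, but 3 with RLE scaling, 4 with a mean of at least 50 counts, 4 with only the compared groups, 4 at an adjusted p under 0.15, 0 after thinning to the shallowest library, 2 without young replicate 1 and old replicate 2 (chosen after seeing the data), and 0 to 3 when 1 replicate was left out. Without the lysate block, 1 gene was called for efficiency in old against young cells, 0 with it. The cause was not tested.

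Values that changed sign were small. The efficiency difference of TALDO1 in ICM against old cells was -0.013, but 0.020 with DESeq2, 0.022 with RLE scaling and 0.033 with a mean of at least 50 counts. With 1 replicate left out it ran from -0.223 to 0.072, that of ME1 from -0.137 to 0.343 and that of IDH1 from -0.343 to 0.050. The mRNA change of TALDO1 in old against young cells ran from -0.025 to 0.069. Without young replicate 1 and old replicate 2 these were -0.013 for the efficiency of ME1 and 0.080 for the mRNA change of TALDO1.

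Replicate numbers did not pair conditions: deviations of same-numbered libraries correlated with r from -0.06 to 0.10 in mRNA-seq and from 0.00 to 0.06 in Ribo-seq. Deviations of the mRNA-seq and Ribo-seq libraries of the same lysate also correlated weakly, with r from -0.08 to 0.13. The lysate block thus rests on the study's methods and not on these correlations. With a replicate block 5, 4 and 5 members were called in mRNA-seq and 5, 1 and 5 in Ribo-seq (ICM against young, old against young, ICM against old), as without it. Over all genes the counts of calls moved more, given in the same order. In Ribo-seq 1236, 1685 and 623 genes were called, but 688, 530 and 341 with DESeq2, 741, 653 and 418 with the block, 784, 978 and 457 with a mean of at least 50 counts, 813, 3142 and 437 with only the compared groups, and 257, 181 and 192 after thinning. For efficiency 113, 67 and 12 genes were called, but 308, 462 and 53 without the lysate block. In mRNA-seq 5055, 4289 and 3870 of 9357, 8709 and 8338 called genes passed a log2 threshold of 0.6. Depth limits the Ribo-seq and efficiency values: the shallowest library held 46239 CDS reads.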
